A study of Taeniopygia guttata with 10 samples.

Results

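The methylomes of untreated and of DMSO-treated ZFTMA cells were compared on the Methylation Peaks, the regions that the study defined as possibly methylated in the zebra finch genome (build taeGut3.2.4). All 719917 peaks entered the comparison, and 691122 of them held at least 1 fragment in 1 of the 2 libraries. The remaining 28795 peaks were at 0 in both. ZFTMA is a tetraploid female zebra finch cell line from a spontaneous, non-neuronal tumor, and each culture condition was represented by 1 MethylCap-seq library of this 1 line. Untreated cells received nothing, whereas the solvent control received DMSO over 72 h, renewed at 24 h intervals, and both were kept in the same serum-containing medium. The other MethylCap-seq libraries used here serve as yardsticks, namely ZFTMA cells given 1 µM AZA on the same schedule and DMSO-treated cells of the diploid male line G266. RRBS was available for untreated ZFTMA. With 1 library per condition there is no replicate check, so ratios are given without a test, and the 95% intervals are exact binomial intervals that cover counting error only.

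In vertebrates, DNA methylation sits mainly on the cytosine of CpG dinucleotides and is copied onto the new strand after replication by DNA methyltransferases. AZA is a cytidine analogue that is built into DNA and traps these enzymes, so that methylation is lost as cells divide. DMSO served as the solvent control, and the untreated culture shows how far 2 libraries of the line lie apart when no AZA is present. An effect of DMSO itself was not tested. MethylCap-seq catches methylated fragments with a methyl-CpG binding domain, and RRBS reads the share of methylated molecules at single CpGs. Bird genomes consist of a few large macrochromosomes and many small microchromosomes, which are rich in genes and in CpGs.

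The untreated library held 10292141 fragments on peaks and the DMSO library 8574525, a ratio of 1.20, which was removed by dividing each count by its library's sum. Peaks were thinly covered: the median peak held 3 fragments in untreated and 3 in DMSO-treated cells, and 258985 peaks (36.0%) held 1 to 4 fragments over both libraries. Peaks without any fragment numbered 113633 in untreated and 75465 in DMSO-treated cells. The AZA library held 2722135 fragments on peaks and the G266 DMSO library 10358829. Ratios per peak carry a prior of 0.5 fragments in each library, and unless stated otherwise they are given for the 94611 peaks (13.1%) with at least 50 untreated and DMSO fragments together, which held 67.5% of the fragments of both. The peaks had been called by the study on the summed coverage of the DMSO libraries of both lines, with a threshold tuned on RRBS, so the DMSO library took part in choosing the peaks and the untreated library did not. No measurement here checks which of the 2 ZFTMA libraries is the untreated one, since both come from the same line. The sexes given for the lines could not be read from these counts. The log2 ratio of DMSO-treated G266, labelled male, over DMSO-treated ZFTMA, labelled female, was 0.32 on chromosome Z. It was 0.23 on chromosome 2 and 0.23 on chromosome 1, but 0.041 on chromosome 5 and -0.69 on chromosome 25, so the autosomes differed widely among themselves. A doubled dose of Z would add 1 if counts followed copies alone, but fragment counts follow methylation as well. No peak lay on the mitochondrial genome.

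Untreated and DMSO-treated ZFTMA cells had closely similar MethylCap-seq profiles. On the 94611 peaks the median log2 ratio of untreated over DMSO was 0.07, with quartiles of -0.15 and 0.26, and the median size of a difference in either direction was 1.16-fold. At 95% of the peaks the difference was at most 1.57-fold. Peaks at least 2-fold higher in untreated cells made up 0.281% of the 94611, and the 240 peaks at least 2-fold lower made up 0.254%. The SD of the log2 ratio was 0.32, where binomial counting of the same numbers of fragments alone gives 0.30. The coefficient of variation beyond counting error, which weighs peaks by their fragments, was 7.69%, and 4.50% after both libraries were rescaled to their sums on these peaks. The 2 libraries were nevertheless not copies of each other, since the mean squared deviation from equal shares was 1.28 times that of binomial counting. With 1 library each, the treatment cannot be told apart from differences in culture, capture or library preparation.

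**Figure D1:**
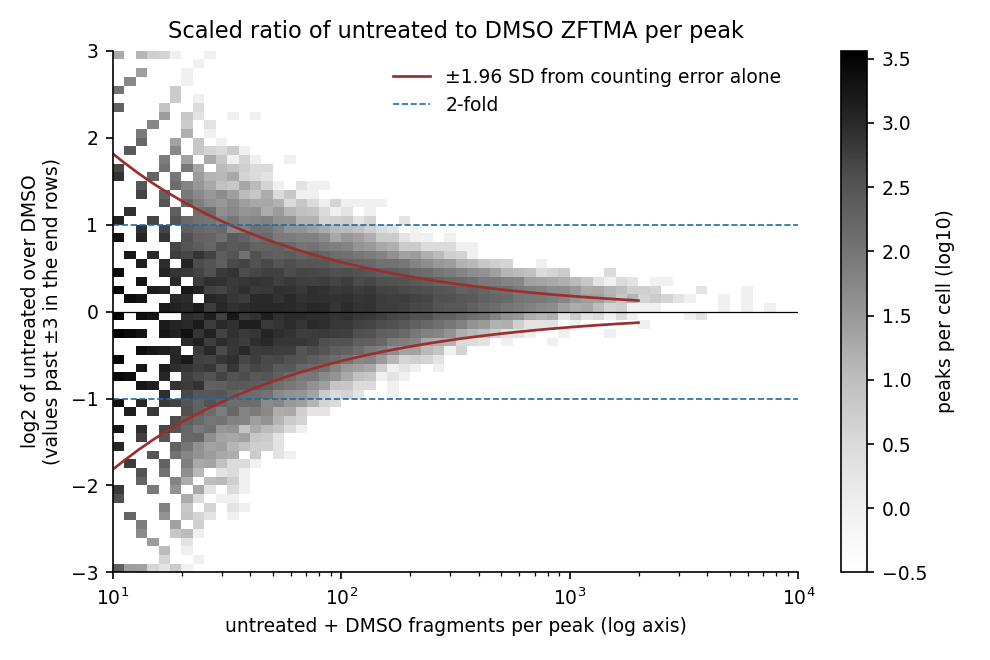
Log2 ratio of untreated over DMSO-treated ZFTMA (vertical axis, scaled by column sums) against the untreated and DMSO fragments of each peak together (horizontal axis, log scale) for peaks with at least 10 fragments. Grey cells count peaks, red curves mark ±1.96 SD of counting error and dashed lines a 2-fold difference. The cloud narrows with depth as the curves do and drifts above 0 on the right, and past 200 fragments no peak reaches a dashed line.

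Most of the 2-fold differences lay at the thin end of the peaks, where counting error is largest. Of the peaks at least 2-fold higher in untreated cells, 92.1% held under 100 fragments, and of the 240 lower ones all did. Among the 42226 peaks with at least 100 fragments, 21 were at least 2-fold higher and none was at least 2-fold lower, and the ratio ran from 0.502 to 2.42. No peak of 200 fragments or more differed 2-fold in either direction. Variation beyond counting error was not confined to thin peaks. Its coefficient was 5.05% at 50 to under 100 fragments and 8.49% at 1000 or more. After rescaling to the sums of each class it was 4.97% and 3.69%, so a shared shift made up much of it in the fullest class. A peak seen well in 1 library was practically never missing in the other. With at least 10 fragments in 1 library and 0 in the other there were 20 peaks found in untreated cells alone and 16 found in DMSO-treated cells alone, and the largest such count was 13 fragments on each side. A count of 0 allows up to 3 fragments, which is 0.291 per 1000000 fragments in the untreated and 0.350 in the DMSO library, so none of these peaks is shown to be unmethylated.

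The size of these differences can be set beside those of the other libraries on the same 94611 peaks. Between AZA and DMSO the median log2 ratio was -0.39 and the SD 0.64, with 0.93% of the peaks at least 2-fold higher and 15.7% at least 2-fold lower in AZA-treated cells. Between AZA-treated and untreated cells the median was -0.46, with 1.11% of the peaks at least 2-fold higher and 17.8% lower after AZA. These peaks were chosen for their fragments in untreated and DMSO-treated cells, which disfavours peaks high after AZA. On the 109572 peaks with at least 25 G266 DMSO fragments instead, 6.75% were higher and 12.0% lower in AZA-treated than in DMSO-treated cells (median -0.24), 9.27% higher and 13.0% lower in AZA-treated than in untreated cells (median -0.26), and 0.611% higher and 2.50% lower in untreated than in DMSO-treated cells (median 0.013). On the 94611 peaks, whichever of the control libraries was used, AZA-treated cells thus lay on the same side with similar shares, although both pairs share the AZA library. Between the lines, G266 DMSO against ZFTMA DMSO, the median was -0.52, with 0.309% of the peaks at least 2-fold higher and 15.8% lower in G266, on peaks chosen for their fragments in ZFTMA. The AZA library is smaller and its counting error larger, which the coefficient of variation beyond counting takes out. Other differences between libraries remain in it, and the paper reports that a smaller share of reads was left after duplicate removal in the AZA-treated samples. After rescaling to the sums on these peaks the coefficient was 4.50% for untreated against DMSO, 23.9% for AZA against DMSO, 23.2% for AZA against untreated and 19.3% between the lines.

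**Figure D2:**
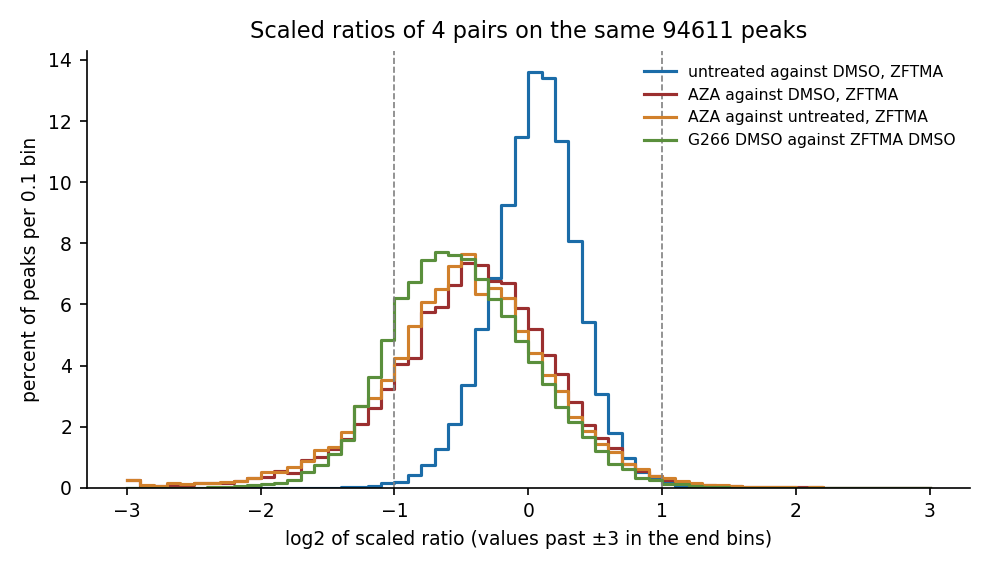
Distribution of the log2 ratio scaled by column sums (horizontal axis) over the same 94611 peaks, as percent of peaks per bin of 0.1 (vertical axis), for 4 pairs of libraries with the first named library on top. Dashed lines mark a 2-fold difference. Untreated against DMSO forms a narrow peak around a median of 0.07, whereas the other pairs are broad, with medians between -0.39 and -0.52.

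Scaling by column sums removes any loss that all peaks share. When the libraries were scaled by the non-duplicate reads of each library instead, the median log2 ratio was 0.08 for untreated over DMSO but -1.06 for AZA over DMSO, with 54.0% of the peaks at least 2-fold lower in AZA-treated cells and 0.203% lower in untreated cells. The study normalized its own counts by the reads between peaks. Here the reads outside peaks were taken as the non-duplicate reads less the fragments on peaks. Whether the published totals count reads or read pairs is not stated, so this scale is uncertain. Scaled by the reads outside peaks, the median of untreated over DMSO moved to 0.25, and 924 peaks were at least 2-fold higher and 48 lower in untreated cells. The median of AZA over DMSO was then -3.33, with 99.9% of the peaks at least 2-fold lower in AZA-treated cells. The split between the directions of the few 2-fold differences therefore depends on the scaling, whereas their scarcity did not: they stayed at or below 0.977% of the peaks in each direction under the 3 scalings.

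The ratio increased with the number of fragments of the peak. The log2 ratio of summed fragments, untreated over DMSO, was -0.63 for peaks with 1 to 4 fragments together, -0.18 for those with 10 to 19 and 0.014 for those with 50 to under 100. It was 0.09 for 100 to under 200 fragments, 0.14 for 200 to under 500 and 0.17 for the 367 peaks with 1000 or more. The fullest peaks were thus relatively more covered in untreated cells, and the thin ones in DMSO-treated cells. In the fullest class 315312 untreated and 234038 DMSO fragments were counted, which put the interval of the log2 ratio at 0.16 to 0.17. The spread within that class was small, with an SD of 0.10 over the peaks against 0.08 from counting alone. AZA over DMSO, which shares the DMSO library with this ratio, stood in the same classes at 1.61 for 1 to 4 fragments, -0.35 for 50 to under 100 and -0.19 for 1000 or more. These classes cap the DMSO fragments and leave the AZA fragments free, so the sorting favours a high value in the thinnest class. Sorted by G266 DMSO fragments instead, AZA over DMSO was -0.45 at 0, 0.19 at 1 or 2 and 1.23 at 3 to 5 fragments.

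Peak width gave the same order. A Methylation Peak starts and ends with a CpG, so the narrowest peaks span 2 bp and hold a single CpG. These 197885 single-CpG peaks (27.5% of all) carried 2.45% of the untreated and 3.33% of the DMSO fragments, a log2 ratio of -0.45 (interval -0.45 to -0.44). Peaks of over 2 to 50 bp lay at -0.12, those of over 200 to 400 bp at -0.067 and those of over 400 to 800 bp at -0.0013. The ratio was 0.061 for over 800 to 1600 bp and 0.13 for the 8825 peaks wider than 1600 bp, which took 19.3% of the untreated and 17.7% of the DMSO fragments. AZA over DMSO was 1.43 at the single-CpG peaks, -0.14 at over 400 to 800 bp and -0.33 at the widest peaks. On peaks with at least 50 fragments together, the classes from over 50 to 1600 bp showed no order by width. Over 50 to 100 bp stood at 0.072, over 200 to 400 bp at 0.083 and over 400 to 800 bp at 0.075. The class of over 2 to 50 bp lay at 0.012 and that of over 1600 bp at 0.13. Only 23 single-CpG peaks were that full, at -0.051 (interval -0.20 to 0.099).

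The ratio was also low at peaks with few fragments in the G266 library, which are not the same set as the thinnest peaks in ZFTMA. The G266 DMSO library also took part in the peak calling but has no part in the ratio, so peaks were sorted by their G266 fragments. Where G266 held 0 fragments, 1928 peaks, 5029 untreated fragments stood against 8689 DMSO fragments, a log2 ratio of -1.05 (interval -1.10 to -1.0). With 1 or 2 G266 fragments the ratio was -0.96 over 47498 peaks, and with 3 to 5 it was -0.25 over 217827 peaks. From there it increased in small steps, through -0.14 at 6 to 10, 0.0072 at 21 to 50 and 0.08 at 51 to 100, to 0.16 above 200 G266 fragments. Untreated fragments were thus fewest, relative to DMSO, where G266 added least to the peak. Such peaks had to pass the calling mainly through their ZFTMA DMSO fragments, so a low ratio there is built in by the choice. At the single-CpG peaks, by contrast, the log2 ratio of G266 DMSO over ZFTMA DMSO was 1.31. The excess at the full end was present in this order as well, but G266 took part in the calling and is no independent check. How much of the order by count, width and G266 fragments comes from the peak calling was not tested. Among peaks of one width, over 400 to 800 bp, the ratio still went through -0.21 at 6 to 10 G266 fragments and 0.014 at 21 to 50 to 0.073 above 50.

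**Figure D3:**
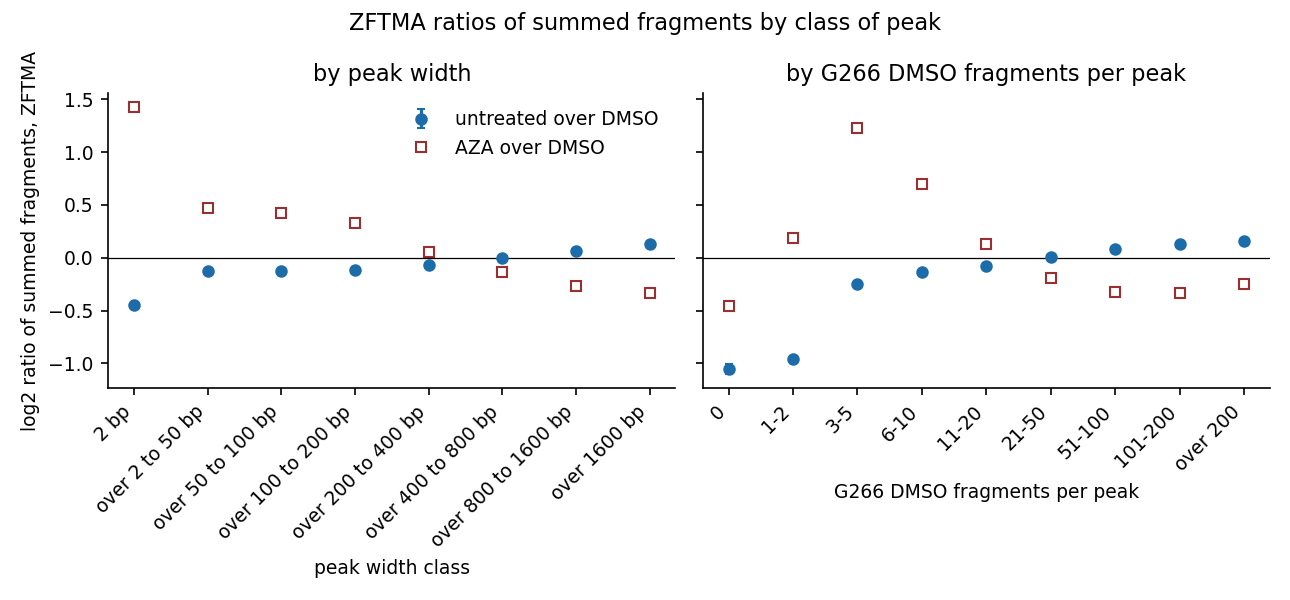
Log2 ratio of summed fragments in ZFTMA (vertical axis) for untreated over DMSO (filled circles, with 95% counting intervals) and AZA over DMSO (open squares) by peak width (left panel) and by the fragments of the peak in the G266 DMSO library (right panel). Untreated over DMSO increases from -0.45 to 0.13 with width and from -1.05 to 0.16 with the G266 count.

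The chromosomes differed little, but in order of their size. Of 31 placed chromosomes with at least 1000 fragments, 8 had a log2 ratio of untreated over DMSO below 0 and 23 above 0, scaled by column sums. Another scale would shift all chromosomes alike, so their order does not depend on it, but the side of 0 does. The 7 chromosomes whose last peak ends past 40 Mb (2, 1, 3, 1A, Z, 4 and 5) all lay below 0, between -0.066 and -0.015. The 16 chromosomes whose last peak ends before 20 Mb all lay above 0, between 0.056 and 0.14. The 8 chromosomes in between ran from -0.0012 to 0.047, and on chromosomes 7, 6 and 8 the counting interval included 0. Chromosome 2, the longest, had 1095921 untreated and 955533 DMSO fragments, a fold of 0.956, and chromosome 25 had 45007 and 34089, a fold of 1.10. Across the 31 chromosomes the rank correlation of the ratio with the end of the last peak was -0.98, given as a description, since the chromosomes share both libraries and differ in CpG density and peak width. Over all 33 names with at least 1000 fragments the SD was 0.069, which includes unplaced sequence at 0.09 and the small linkage group LG2 at 0.25 with 2283 untreated and 1599 DMSO fragments.

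The chromosomes differed in the width of their peaks. Single-CpG peaks made up 30.9% of the peaks on chromosome 2 and 10.1% on chromosome 25. Within each of the 8 width classes the chromosomes ending before 20 Mb had a higher ratio than those ending past 40 Mb. At over 400 to 800 bp the values were 0.058 (interval 0.053 to 0.064) and -0.039 (interval -0.043 to -0.036), and above 1600 bp they were 0.14 and 0.10. The same held in each of the 9 classes of G266 fragments, with 0.064 and -0.029 at 21 to 50 fragments. AZA over DMSO stood between -0.44 and -0.20 on the short chromosomes and between 0.039 and 0.21 on the long ones. Scaled by column sums, untreated cells thus differed from DMSO-treated cells by at most 0.14 on any of the 31 chromosomes, where AZA-treated cells differed from them by up to 0.44. Both limits depend on the scale. With the reads outside peaks, the medians over the 94611 peaks were 0.25 and -3.33.

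**Figure D4:**
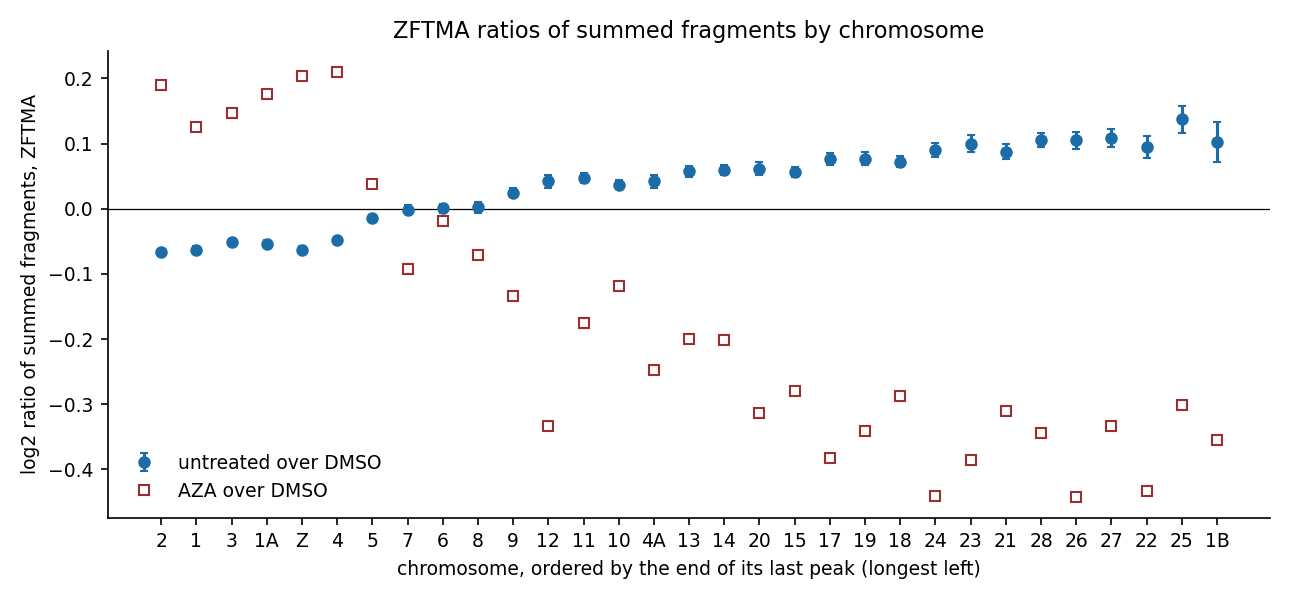
Log2 ratio of summed fragments in ZFTMA (vertical axis) for untreated over DMSO (filled circles, with 95% counting intervals) and AZA over DMSO (open squares) on 31 chromosomes, ordered by the end of the last peak. Untreated over DMSO climbs from -0.066 on chromosome 2 to 0.14 on chromosome 25, and AZA over DMSO has positive values on the 7 longest and negative values on the others.

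Windows along the chromosomes varied more than counting gives. In 1033 windows of 1 Mb on placed chromosomes the log2 ratio of untreated over DMSO had a median of -0.054, an SD of 0.089 and a range of -0.35 to 0.16, where counting alone gives an SD of 0.026. Fragment counts follow methylation as well as copy number, and differences in copy number were not tested. The lowest window lay at 98 to 99 Mb on chromosome 2, with 1939 untreated and 2065 DMSO fragments on 514 peaks (log2 ratio -0.35, interval -0.44 to -0.26). The highest lay at the end of chromosome 1B, with 2594 and 1938 fragments on 79 peaks (0.16, interval 0.072 to 0.24). Windows followed their density. The 25% with the fewest G266 DMSO fragments had a median of -0.10 and the 25% with the most had 0.027. AZA over DMSO spanned -0.55 to 1.11 over the same windows. The deviations of neighbouring peaks had a correlation of 0.05 over 8411 pairs at most 400 bp apart. It was 0.05 over 26684 pairs 400 to 2000 bp apart, 0.02 over 46536 pairs 2000 to 20000 bp apart and 0.03 over 12945 pairs farther apart. Deviations of single peaks were mostly counting error (SD 0.32, against 0.30 from counting alone). A low correlation was therefore given by the depth, and it cannot show whether neighbours shared their deviations.

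RRBS gave the methylation degree of untreated ZFTMA at the same peaks. Of 1074648 CpGs with at least 10 reads, 615502 (57.3%) lay in peaks, and 50574 peaks (7.03%) held at least 3 of them. At these peaks the number of fragments followed the degree in both libraries. Peaks of 0 to 20% methylation had a median of 3.28 untreated and 3.36 DMSO fragments per kb per 1000000 fragments on peaks. Peaks of over 40 to 60% had 6.26 and 5.89, and peaks of over 80 to 95% had 8.87 and 8.18. Above 95% there was little further gain, at 8.93 and 8.17, and the quartiles of the upper classes overlapped. The rank correlation of the degree with the fragments per kb was 0.32 in untreated and 0.32 in DMSO-treated cells over the 50574 peaks. It was 0.26 and 0.26 for the plain counts, and 0.30 and 0.31 within peaks of over 400 to 800 bp. These coefficients are descriptions, because the peaks are not independent and their threshold was tuned on the same RRBS data. With at least 10 CpGs per peak they were 0.44 in untreated and 0.43 in DMSO-treated cells, so neither library followed the degree of the untreated DNA more closely at both settings.

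**Figure D5:**
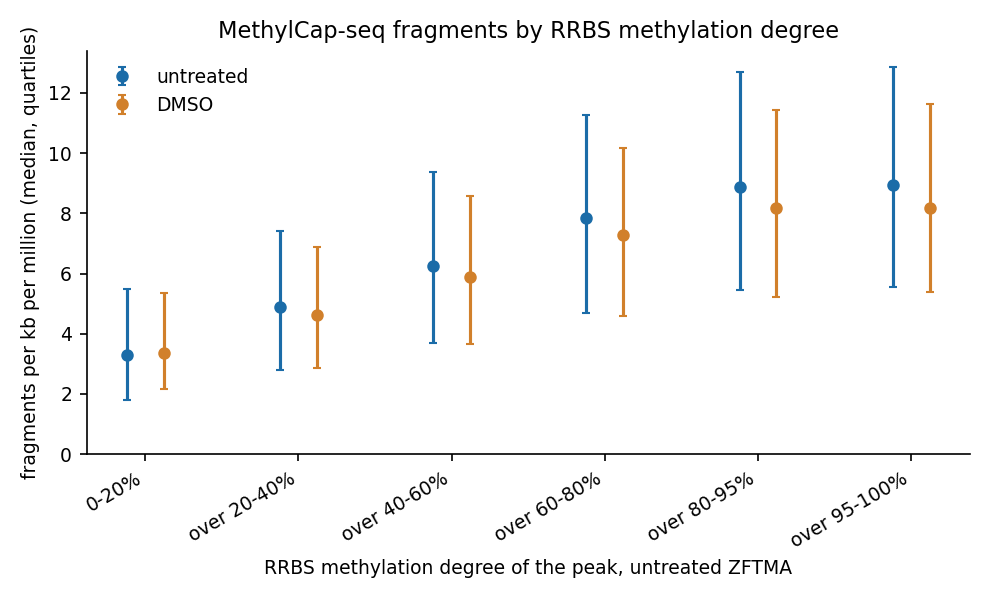
MethylCap-seq fragments per kb per 1000000 fragments on peaks (vertical axis, median with quartiles over peaks) in untreated (blue, left) and DMSO-treated (orange, right) ZFTMA by the RRBS methylation degree of the peak in untreated ZFTMA (horizontal axis), for 50574 peaks with at least 3 CpGs. The medians of the lowest class are 3.28 and 3.36 and those of the highest 8.93 and 8.17. Untreated lies below DMSO in the lowest class and above it in all others, and DMSO is level over the upper 2 classes (8.18 and 8.17).

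The ratio between the libraries was lowest at the least methylated peaks. The log2 ratio of summed fragments, untreated over DMSO, was 0.037 at 0 to 20% methylation (interval 0.019 to 0.055), 0.11 at over 40 to 60%, 0.14 at over 80 to 95% (interval 0.138 to 0.145) and 0.12 above 95%. AZA over DMSO stood at -0.41, -0.38, -0.25 and -0.21 in those classes. The peaks of 0 to 20% were also thin and narrow, with medians of 11 untreated fragments and 350 bp. Those of over 80 to 95% had 65 fragments and 704 bp. With at least 50 fragments, the median log2 ratio of untreated over DMSO was 0.073 and 0.14 in these 2 classes. How much of the order by degree comes from depth and width was not tested. Of the peaks with at least 50 fragments and 3 CpGs, the 88 that were at least 2-fold higher in untreated cells had a median degree of 75.5% (quartiles 53.1% and 88.7%). The 27 lower ones had 72.0% (40.3% and 92.0%), and the 33140 others 77.4% (59.4% and 88.7%). The quartile ranges of the 3 groups overlap widely. With at least 10 CpGs per peak only 4 lower peaks were left, with a median of 29.6%. The ratio was also ordered by the density of the CpGs covered by RRBS. Over 4 equal sets of peaks, from the lowest density to the highest, it was 0.089, 0.13, 0.15 and 0.17, although the median degree was 79.6% in the first set and 62.0% in the last.

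The few peaks that stood farthest apart are given by position. Among the peaks with at least 100 fragments, the highest ratio was found on chromosome 22 at 737587 to 738363, a peak of 777 bp with 96 untreated and 33 DMSO fragments, 2.42-fold higher in untreated cells (interval of the log2 ratio 0.69 to 1.89). RRBS of untreated cells put 6 CpGs there at 92.8% (interval 90.8 to 94.4). The next was a peak of 345 bp on chromosome 1A at 61396526 to 61396870, with 92 untreated and 32 DMSO fragments. A peak of 323 bp on chromosome 2 at 47645308 to 47645630 had 114 and 40. These 3 stood at 2.42-, 2.40- and 2.37-fold, and G266 DMSO cells had 51, 43 and 34 fragments there. Chromosome 19 carried the other 2 of the 5 highest. The one at 717748 to 718315, with 74 untreated and 26 DMSO fragments, lay 12325 bp from ELN, the gene of elastin. The one at 10919214 to 10919629, with 73 and 27, lay inside the gene ENSTGUG00000008592, which carries no symbol, and its 13 CpGs were methylated to 96.9% (interval 95.8 to 97.7).

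At the other end, no peak of at least 100 fragments was 2-fold lower in untreated cells. The lowest ratio, 0.502, belonged to a peak of 1058 bp on chromosome 2 at 53733648 to 53734705, with 38 untreated and 63 DMSO fragments. A peak of 1094 bp on chromosome 3 at 70684321 to 70685414 had 43 and 71. One of 803 bp on chromosome 7 at 37300031 to 37300833 had 39 and 64. On chromosome Z a peak of 1343 bp at 50832591 to 50833933 had 67 untreated and 107 DMSO fragments, 2249 bp from ADAMTS6, which encodes an extracellular metalloprotease. Its 14 CpGs were methylated to 17.8% in untreated cells (interval 16.4 to 19.3). The fifth, on chromosome 1A at 65299904 to 65300629, had 45 and 71. The counting intervals of all 10 peaks exclude 0, but each interval stands for a single peak, and these were picked as the extremes of 42226.

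For genes, the fullest peak within 2000 bp outside or 500 bp inside either end of the gene was taken, since the direction of transcription was not used. The gene positions came from lists that the study had drawn up from AZA against DMSO in these same libraries, so a loss after AZA at these genes is given by their choice. Of 114 genes in 8 lists, 113 had a position and a peak, and 111 had at least 20 fragments at it. None of the 111 was at least 2-fold higher in untreated cells, where 1.33% of all 197322 peaks with at least 20 fragments were, and 1 was at least 2-fold lower, against 2.71%. The median log2 ratio of untreated over DMSO over the 111 genes was 0.095, and it was 0.0058 over all such peaks. The gene peaks were deeper, with a median of 176 fragments against 47 over all such peaks, and 80 of the 111 held at least 100. Peaks of 100 to under 200 fragments had a median ratio of 0.085, with 0.0749% at least 2-fold higher and 0% lower, so the shares and medians of all peaks are no like background for the genes. For 95 of the genes the counting interval included 0, and the share among all peaks of like depth is not given here. AZA over DMSO had a median of -0.47 at the same peaks.

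At the genes that the study followed up by pyrosequencing or showed as examples, no counting interval of the peak taken here left out 0. The intervals are wide, so differences within them are not excluded. The fullest peak need not be the promoter region that the study read by pyrosequencing. At NGB, a variable site that the study found in G266 and corrected for in its pyrosequencing lies outside the peak taken here, so the region read there was not this peak. NGB (neuroglobin, an oxygen-binding protein of nerve cells) had 29 untreated and 25 DMSO fragments, a log2 ratio of -0.049 after scaling. HES1, a transcriptional repressor and Notch target, had 181 untreated and 123 DMSO fragments, a log2 ratio of 0.29 (interval -0.044 to 0.64), and 17 CpGs at 89.8%. GABRD (delta subunit of the GABA-A receptor) had 66 untreated and 38 DMSO fragments, the largest difference of the list at 0.53, with an interval of -0.064 to 1.15 and 17 CpGs at 29.4%. RRBS held no CpG in the peak of NGB, and none of these 3 genes has an interval that leaves out 0. ANK1 (ankyrin 1, which ties membrane proteins to the cytoskeleton) had 98 untreated and 84 DMSO fragments. MMP9 (a matrix metalloprotease) had 372 untreated and 268 DMSO fragments, with 33 CpGs at 76.5%. IKBKE (a kinase of innate immune signalling) had 97 untreated and 74 DMSO fragments. These 3 genes again had intervals that include 0, with log2 ratios of -0.041, 0.21 and 0.13. HBEGF (heparin-binding EGF-like growth factor) had 42 untreated and 37 DMSO fragments, the lowest ratio of the list at -0.081, with 23 CpGs at 96.0%. The scaled log2 ratio of AZA over DMSO was -0.85 at NGB, -0.74 at HES1, -1.10 at ANK1, -0.47 at MMP9 and -1.32 at IKBKE. It was above 0 at GABRD (0.75, 20 AZA against 38 DMSO fragments) and at HBEGF (0.28, 14 against 37). Scaling by column sums removes any loss that all peaks share, so these 2 values do not show a gain of methylation after AZA. At GABRD the study reported less promoter methylation after AZA by pyrosequencing. BDNF was on this list but is not analysed here.

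The other lists were described in the same way, each by its median ratio and its extreme genes, which were picked for their ratio. The lists were not matched for the fragments of their peaks. Over all peaks the median ratio was 0.0090 at 50 to under 100 fragments and 0.13 at 200 to under 500. Differences between list medians therefore cannot be told apart from differences in depth. Over 15 genes of DNA methylation and chromatin the median log2 ratio of untreated over DMSO was 0.11. The highest was DNMT3B, a de novo DNA methyltransferase, with 83 untreated and 44 DMSO fragments (0.65, interval 0.11 to 1.21) and 7 CpGs at 50.4%. SETD6, a lysine methyltransferase, came next with 80 and 53. At the low end HDAC9, a histone deacetylase, had 34 untreated and 41 DMSO fragments, and KDM8, named as a lysine demethylase, had 31 and 35. Of these 4 genes, DNMT3B alone had an interval that leaves out 0. Over the whole list of 15 genes, 13 intervals included 0, so DNMT3B was not the only gene of the list whose interval did not.

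Among 23 neurotransmitter receptors and ion channels the median was 0.051. GABRD was the highest, followed by SSTR5, a somatostatin receptor, with 357 untreated and 228 DMSO fragments (0.38, interval 0.14 to 0.63) and 33 CpGs at 88.8%. DRD3, a dopamine receptor, was the lowest with 32 untreated and 47 DMSO fragments (-0.82, interval -1.51 to -0.14). CACNA1I, a T-type calcium channel subunit, had 54 and 68 (-0.60, interval -1.14 to -0.059). In 3 of 23 genes, on either side of 0, the interval thus leaves 0 out. The share of such intervals among all peaks of like depth is not given here. All peaks of 500 to under 1000 fragments, the class of the SSTR5 peak, had a median of 0.17, which lies inside the interval of SSTR5.

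Among 18 developmental transcription factors the median was 0.12 and 16 genes lay above 0, as did 78 of the 111 genes of all lists. The lower quartile of all peaks was itself 0.011 at 200 to under 500 fragments, and -0.23 at 50 to under 100. The count is therefore no trait shown for this list. SOX17, a factor of endoderm and vessels, had 126 untreated and 80 DMSO fragments, and HEYL, a Notch target, had 280 and 187 (0.32, interval 0.047 to 0.59). KLF7, a zinc finger factor, had 25 and 23 (-0.14 after scaling), and SIX4, a homeodomain factor, had 99 and 90 (-0.13). Among 12 developmental signals the median was 0.15. GDF6, a growth factor of the BMP family, had 210 untreated and 135 DMSO fragments (0.37, interval 0.055 to 0.70), and WNT9A, a Wnt ligand, had 152 and 104. SFRP1, a secreted Wnt antagonist, had 109 and 93 (-0.034), and BMP5, a BMP ligand, had 58 and 48 (0.0096). In these lists the lowest genes lay close to 0, at -0.14 and -0.034.

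Over 8 genes of germ line and meiosis the median was 0.069. PNLDC1, an exonuclease of piRNA trimming in mammals, had 118 untreated and 70 DMSO fragments (0.49, interval 0.051 to 0.94), and DDX4, the vasa RNA helicase, had 46 and 34. HORMAD2, a protein of the meiotic chromosome axis, had 57 and 66 (-0.47), and MNS1, needed for sperm flagella in mammals, had 58 and 51 (-0.078 after scaling). Over 16 genes of the extracellular matrix with at least 20 fragments the median was 0.16. LTBP2, a microfibril protein, had 151 untreated and 95 DMSO fragments (0.41, interval 0.025 to 0.79), and COL6A2, a collagen VI chain, had 190 and 122 (0.38, interval 0.040 to 0.72). MMP13, a collagenase, was the single gene past 2-fold, with 8 untreated and 16 DMSO fragments, and its interval of -2.70 to 0.045 includes 0. VCAN, the proteoglycan versican, had 69 and 69, which is -0.26 after scaling.

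The 15 housekeeping genes of translation, proteasome and RNA polymerases had the median nearest to 0, at 0.026, without a match for depth. EIF2B2, a subunit of an initiation factor, had 56 untreated and 29 DMSO fragments (0.69, interval 0.014 to 1.39). POLR3G, an RNA polymerase III subunit, had 15 and 9. EIF5, an initiation factor, had 40 and 39 (-0.23 after scaling), and POLR3E, also of RNA polymerase III, had 12 and 14 (-0.49). Wider sets of genes were compared by their summed fragments. The 8952 peaks at the ends of the 1996 genes with a demethylated promoter in the study's list had a log2 ratio of 0.091 (interval 0.084 to 0.098), and the 4661 peaks at the other 1180 genes with a position had 0.14 (interval 0.13 to 0.15). The medians over these peaks were -0.022 and 0.026, thin peaks included. AZA over DMSO was -0.45 at the listed genes, which had been chosen for it, and -0.23 at the others.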

How the data were processed

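MethylCap-seq counts of untreated and DMSO-treated ZFTMA were compared, with AZA-treated ZFTMA and DMSO-treated G266 beside them, 1 library each. The authors mapped read pairs to taeGut3.2.4 (Bowtie2 2.1.0 per the submitters' processing notes), removed duplicates, called peaks on the summed DMSO coverage of both lines and deposited the fragment count per Methylation Peak without normalization. For RRBS (Bismark 0.9.0) the authors deposited the read count and the methylation degree in percent of each CpG covered by at least 10 reads. Here counts were divided by column sums and expressed as log2 ratios with a prior of 0.5 fragments, in Python 3.11.15 with pandas 2.3.3 and scipy 1.17.1. For the coefficient of variation beyond counting, the squared differences of the scaled counts less their Poisson part were summed over peaks. The sum was divided by 2 times the summed product of the scaled counts, and the root was taken. The form scaled by column sums was tried on simulated data, and the rescaled (centred) form was not. RRBS degrees are methylated over all reads of a peak's CpGs, 3 or more. Windows of 1 Mb and chromosomes needed 1000 fragments. Named peaks were the 5 highest and 5 lowest of at least 100 fragments, and named genes all of the first list and the 2 highest and 2 lowest of the others with at least 20. Members, lists and settings were chosen with earlier results of these data known. Alternatives were other scalings, count minimums, priors and peak sets. RNA-seq held no untreated library and was not used here. Columns of G266 treated with AZA entered no comparison.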

Additional observations from a re-analysis of the deposited data

How the results depend on the processing

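No paired analysis was possible because each condition had 1 library and the labels give no shared replicate numbers. Leaving out a replicate was not possible either. The median log2 ratio of untreated over DMSO (0.07) stayed small and positive with the non-duplicate reads as scale (0.08), the reads outside peaks (0.25), at least 20 (0.0058) or 100 fragments (0.11), 25 untreated (0.096) or 25 DMSO fragments (0.025), a prior of 5 (0.040), without unplaced sequence and linkage groups (0.064), at peaks with no other within 400 bp (0.053) and with at least 25 G266 DMSO fragments (0.013). With every peak of at least 1 fragment it reversed to -0.26, the value of equal counts after scaling. The share of peaks at least 2-fold higher in untreated cells (0.281%) moved to 0.977% with reads outside peaks, 1.33% and 0.0497% at 20 and 100 fragments, 10.3% at 1 fragment, 0.820% and 0.0328% with 25 untreated or 25 DMSO fragments, 0.0603% with a prior of 5 and 0.611% with 25 G266 DMSO fragments. The share at least 2-fold lower (0.254%) moved to 0.203% and 0.0507% with non-duplicate reads or reads outside peaks, 2.71%, 0% and 25.4% at 20, 100 and 1 fragments, 0.0399% and 0.941% with 25 untreated or 25 DMSO fragments, 0.0846% with a prior of 5, 0.302% at isolated peaks and 2.50% with 25 G266 DMSO fragments. A minimum in 1 library selects for peaks high in that library by construction, which gives the opposite shifts of the untreated and DMSO minimums. The filters on G266 DMSO and the centring were chosen after seeing the data. The coefficient of variation (7.69%) was 7.67% and 7.85% at 20 and 100 fragments, 7.61% without unplaced sequence, 7.18% at isolated peaks, 7.73% with 25 G266 DMSO fragments and 4.50% when centred. The SD over chromosomes (0.069) was 0.062 for peaks of at least 100 bp and 0.060 for chromosomes of at least 10000 fragments, and the SD over windows (0.097 with unplaced sequence) was 0.088 at 5000 fragments and 0.081 for windows of 5 Mb. The widest minus the single-CpG class (0.57) was 0.18 at 50 fragments, where it rests on 23 single-CpG peaks, and 0.25 with 5 G266 DMSO fragments. The rank correlation of RRBS degree with untreated fragments per kb (0.32) was 0.17, 0.44 and 0.33 with at least 1 CpG, at least 10 CpGs and at least 30 reads per CpG, and with DMSO (0.32) it was 0.18, 0.43 and 0.34. The median degree of peaks lower in untreated cells (72.0%) moved to 29.6% with at least 10 CpGs, on 4 peaks. The depth limits single peaks: with 50 fragments, counting alone spreads the log2 ratio widely, and the SD from counting over the 94611 peaks was 0.30.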
